A study of Mus musculus with 3 samples.

Results

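The genes described here serve the presentation of antigen by major histocompatibility complex (MHC) class II molecules in neonatal mouse skin. They are Cd74, H2-Aa, H2-Ab1, H2-Eb1, H2-DMa and Ciita, with Ptprc as a reference for leukocytes and Cd207 as a reference for Langerhans cells. Members were the probe sets that the platform annotation pairs with exactly 1 of these gene symbols, a rule that uses no measured value. This gave 8 genes of the 18193 with a single-gene probe set, represented by 17 probe sets. RNA came from dorsal skin of female BALB/cA mice at the age of 4 days. The groups were 1 wild type mouse (uncv +/+) and 2 uncv null mice (uncv -/-), sisters from uncv +/- parents, with 1 array per mouse. Uncv is a spontaneous recessive mutation that leaves mice with sparse or missing hair, and it has been assigned to Rhbdf2, which encodes iRhom2. The labels name no treatment.

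A class II molecule is an alpha chain paired with a beta chain. In the mouse the chains of I-A are encoded by H2-Aa and H2-Ab1, and the beta chain of I-E by H2-Eb1. Cd74 encodes the invariant chain, which fills the peptide groove until proteases of the endosome degrade it, and H2-DMa encodes a subunit of H2-DM, which exchanges the last invariant chain fragment for antigen peptide. Ciita encodes the transactivator that is recruited to class II promoters by a complex of RFX, CREB and NF-Y proteins, and interferon gamma induces it in many cell types. In skin the usual carriers of class II are Langerhans cells of the epidermis and dendritic cells and some macrophages of the dermis. Langerhans cells of newborn mice are known to acquire class II and langerin, the product of Cd207, only during the days after birth.

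Class II promoters carry an X box, bound by RFX, and downstream of it a Y box, an inverted CCAAT element bound by NF-Y. Promoter windows of 300 bases (250 before to 50 after the annotated start) from RefSeq, GRCm38.p6, were searched for 10 of the 15 members and further class II genes listed. The windows are of C57BL/6J, whose H2 haplotype differs from that of BALB/c mice. None was searched for Cd74, H2-Ab1, Ciita, H2-Ea and H2-Ea-ps. For listed genes the search skipped the chromosome of Cd74 by rule, and the count over all windows had no such rule. The windows were searched on both strands for the Y box TGATTGG and for the X box core GNAAC, and a pair was counted where the core began 20 to 45 bases before the Y box on the same strand. The motifs do not overlap at that spacing, and they were set with the class II windows in view. Such a pair was present in 6 of the 10 genes and in 0.715% of all 32851 windows. The Y box was first searched as CTGATTGG, which gave the pair in 4 of the 10 genes and in 0.341% of windows; the shorter form was taken after that search was seen to leave out H2-Ob and H2-DMb1, so the count of 6 was reached by choice of motif and is a description only. The Y box alone was found in 7.82% of windows and the X box core alone in 84.8%. H2-Aa and H2-Eb1 are shown in full because, of the members searched, they are those whose window held the pair. The stretch around the pair is shown for dim class II genes for comparison. Capitals mark the X box core and then the Y box.
H2-Aa, chr17:34287774-34288073, minus strand: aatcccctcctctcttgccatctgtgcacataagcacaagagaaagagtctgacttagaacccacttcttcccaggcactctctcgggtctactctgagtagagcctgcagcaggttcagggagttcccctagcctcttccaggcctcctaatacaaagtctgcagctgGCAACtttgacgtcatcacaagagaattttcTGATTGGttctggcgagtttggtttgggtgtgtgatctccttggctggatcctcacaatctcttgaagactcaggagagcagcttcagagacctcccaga
H2-Eb1, chr17:34305617-34305916, plus strand: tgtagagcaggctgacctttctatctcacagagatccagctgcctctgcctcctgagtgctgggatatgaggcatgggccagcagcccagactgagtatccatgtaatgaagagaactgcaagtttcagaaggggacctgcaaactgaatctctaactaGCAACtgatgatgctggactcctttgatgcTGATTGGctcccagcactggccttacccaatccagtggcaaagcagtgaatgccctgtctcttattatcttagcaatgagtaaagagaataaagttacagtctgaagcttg
H2-Eb2, chr17:34325523-34325599, plus strand: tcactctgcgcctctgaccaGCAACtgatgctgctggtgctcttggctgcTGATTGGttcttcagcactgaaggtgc
H2-Oa, chr17:34092283-34092360, plus strand: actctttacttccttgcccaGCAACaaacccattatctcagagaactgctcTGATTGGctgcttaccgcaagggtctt
H2-Ob, chr17:34238798-34238872, plus strand: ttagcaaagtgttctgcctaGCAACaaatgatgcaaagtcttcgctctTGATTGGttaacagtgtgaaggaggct

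In H2-Aa the X box core began 81 bases and the Y box 50 bases before the annotated start. In H2-Eb1 they began 91 and 61 bases before it. The distance between both motifs was 31 bases in H2-Aa, H2-Oa and H2-DMb1, 30 bases in H2-Eb1 and H2-Eb2, and 28 bases in H2-Ob. The windows of H2-DMa, Ptprc and Cd207 held neither the Y box nor the pair, and that of H2-DMb2 held a Y box without the pair. A match describes these letters only.

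**Figure D1:**
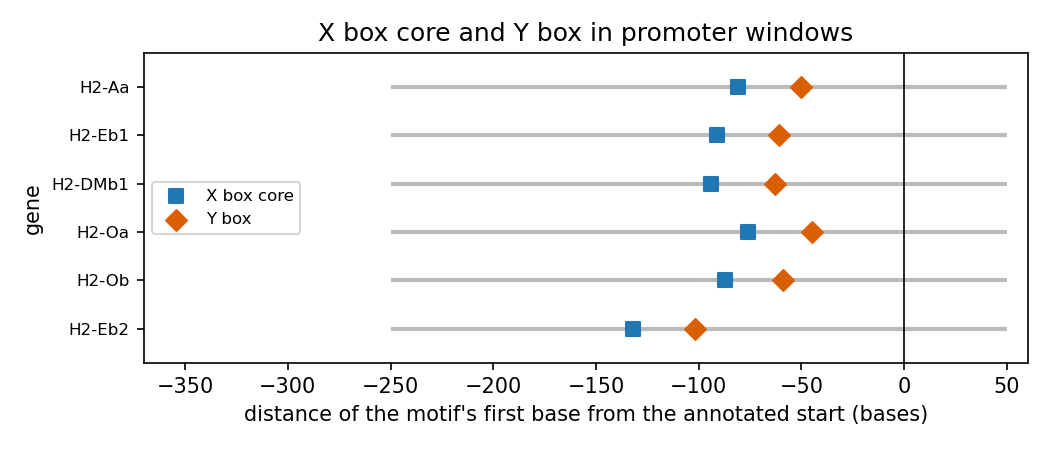
Positions of the X box core (squares) and the Y box (diamonds) in the promoter windows of 6 class II genes, as the distance in bases of each motif's first base from the annotated start (vertical line). The pair lies 28 to 31 bases apart in all 6, with H2-Eb2 farthest from its start at 132 and 102 bases.

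Levels are given as RMA values (log2), so a difference of 1 is 2-fold, and 3 values without a label stand in the order wild type, uncv null 1, uncv null 2. A ± gives limma's moderated SE of a mean difference. Over tested probe sets the SD of the difference between arrays was 0.350 for wild type and uncv null 1, 0.432 for wild type and uncv null 2, and 0.416 for the uncv null arrays. By this measure the pair of uncv null arrays was not the closest pair. The mean over the control probe sets of 18S rRNA was 3.59 (wild type), 7.93 (uncv null 1) and 4.26 (uncv null 2). The 3' minus 5' difference of the actin control, a sign of RNA quality, was 0.66, 1.23 and 0.79, so that uncv null 1 stood apart from both other arrays by both measures. The skin markers Krt14 and Krt10, keratins of basal and suprabasal epidermis, and Col1a1, a collagen of the dermis, lay between 11.1 and 12.9 in all arrays. The highest value of any of 9 probe sets of Y-linked genes in these female mice was 3.65, and the medians of the arrays lay at 3.70, 3.70 and 3.65. Values near or below that level were not shown to be above background. Only probe sets with a mean of 5 or more were tested, and those below it are called dim here.

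Of the 17 member probe sets, 9 passed this minimum, and they belong to Cd74, H2-Aa, H2-Ab1, H2-Eb1 and Ptprc. The tested probe sets of the class II chains and the invariant chain lay at 5.29 or more in every array. Ciita and Cd207 stayed at the level of the Y-linked probe sets or below it. By limma with Benjamini-Hochberg adjustment over 13559 probe sets, 0 of the 9 passed, as did 0% of all tested probe sets (smallest adjusted p = 0.9996). An unadjusted p under 0.05 was reached by 0 of the 9 and by 391 (2.88%) of all tested probe sets. With an intensity trend or robust variances the adjusted count over all probe sets was again 0, and the unadjusted count 418 or 392. An exact permutation test of 1 against 2 arrays cannot give a p below 0.333. The differences below are therefore descriptions of these 3 mice, and the p-values rest on variances drawn mostly from all probe sets, with 4.75 prior against 1 residual degree of freedom. That 1 degree of freedom is the spread between the 2 uncv null arrays, and wild type gives none.

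**Figure D2:**
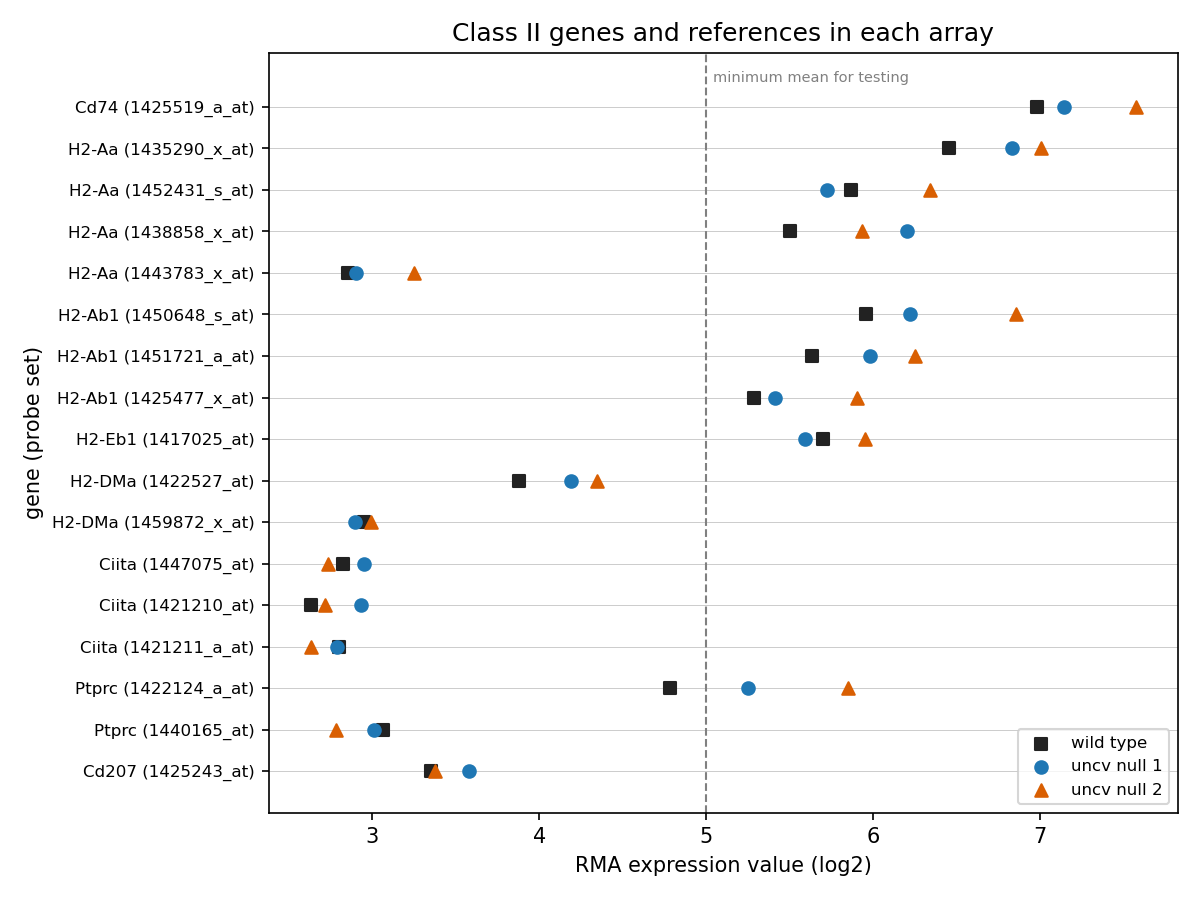
RMA expression values (log2, horizontal axis) of all 17 member probe sets (vertical axis) in wild type (squares), uncv null 1 (circles) and uncv null 2 (triangles), 1 point per array; the dashed line marks the minimum mean of 5 for testing. Cd74 reaches 7.58 in uncv null 2, whereas the Ciita and Cd207 points all lie below 3.6.

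Cd74, the invariant chain, had the highest mean of the members and lay at percentile 89.7 of all non-control probe sets. Its values were 6.98 (wild type), 7.15 (uncv null 1) and 7.58 (uncv null 2) (probe set 1425519_a_at). Both uncv null arrays lay above wild type, by 0.16 and 0.60, and the gap of 0.43 between the uncv null arrays was larger than their mean difference from wild type. That mean was 0.38 ± 0.30 (limma's moderated SE, 1 against 2 arrays; 95% interval -0.36 to 1.12), which is 1.30-fold and did not pass the test (limma adjusted p = 0.9996). By the distance over both differences from wild type, the 5 nearest genes with a standard name were Slc27a1, Pex3, Ypel5, Ampd3 and Mvk, and 109 tested genes lay within 0.1 of Cd74.

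H2-Aa, the I-A alpha chain, has 4 probe sets, of which 3 were tested. The brightest, 1435290_x_at, had 6.46 (wild type), 6.83 (uncv null 1) and 7.01 (uncv null 2). Its mean difference from wild type was 0.46 ± 0.26 (95% interval -0.19 to 1.12). The probe set 1438858_x_at had 5.50, 6.20 and 5.93 in the same order and a mean difference of 0.56 ± 0.27. Here uncv null 1, not uncv null 2, was the highest array. The probe set 1452431_s_at had 5.87, 5.72 and 6.34, so that wild type lay between the uncv null arrays, and its mean difference was 0.16 ± 0.34. The probe sets of H2-Aa therefore disagree on the side of wild type on which uncv null 1 lies. In the naming of this platform the suffixes _x_at and _s_at mark probe sets whose probes may bind, or were chosen to bind, more than 1 transcript, and the x and s probe sets of the polymorphic class II genes are uncertain for that reason. The remaining probe set, 1443783_x_at, was dim at 2.85, 2.90 and 3.25.

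H2-Ab1, the I-A beta chain, was higher than wild type on both uncv null arrays by all 3 of its probe sets, and in each the order was wild type, uncv null 1, uncv null 2. The brightest, 1450648_s_at, had 5.96, 6.23 and 6.86 in that order. Its mean difference of 0.59 ± 0.34 (95% interval -0.26 to 1.43) was the largest of any class II probe set tested. Of all tested probe sets, 6.73% had a larger mean difference in either direction. The probe set 1451721_a_at had 5.63, 5.98 and 6.25, with a mean difference of 0.48 ± 0.27. The dimmest, 1425477_x_at, had 5.29, 5.41 and 5.91, with a mean difference of 0.37 ± 0.31.

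H2-Eb1, the I-E beta chain, was the tested class II member nearest to wild type. Its single probe set, 1417025_at, had 5.70 (wild type), 5.60 (uncv null 1) and 5.96 (uncv null 2). Wild type lay between the uncv null arrays, and the mean difference was 0.07 ± 0.29 (95% interval -0.64 to 0.78). The partner chain H2-Ea, which many strains including C57BL/6 do not express and BALB/c mice do, behaved like H2-Eb1 in order. Its probe set 1422891_at had 6.51, 6.30 and 6.66, with a mean difference of -0.03 that lay nearer to wild type than that of H2-Eb1, and 1422892_s_at had 5.84, 5.71 and 6.47. The remaining probe set of H2-Ea, 1426202_at, was dim, between 2.53 and 2.80. Wild type thus lay between uncv null 1 and uncv null 2 for both chains of I-E, while the brightest probe sets of both chains of I-A had wild type lowest. Whether I-A and I-E genes differ in their response was not tested.

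Over the 8 tested class II probe sets of members, uncv null 2 exceeded wild type in 8, against 57.9% of all tested probe sets, and uncv null 1 in 6, against 48.8% of all. In both uncv null arrays together 6 of the 8 were higher, against 34.9% of all tested probe sets, and 0 were lower, against 28.2%. Their median differences were 0.22 in uncv null 1 and 0.57 in uncv null 2, beside medians of -0.01 and 0.06 over all tested probe sets. In 7 of the 8, uncv null 2 was higher than uncv null 1, against 58.2% of all tested probe sets. H2-Ea is no member and is left out of these counts. With its 2 tested probe sets, wild type was exceeded by uncv null 2 in 10 of 10, by uncv null 1 in 6 and by both in 6; uncv null 2 was the higher of the uncv null arrays in 9. Their medians were 0.14 and 0.57. None reached a 2-fold difference in both arrays, a size that 0.184% of all tested probe sets reached in the upward direction. These probe sets share genes, may share transcripts and come from the same 3 arrays, so they are not independent of each other. In whole skin, a change in the number of cells that carry a transcript and a change in its amount per cell cannot be told apart.

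**Figure D3:**
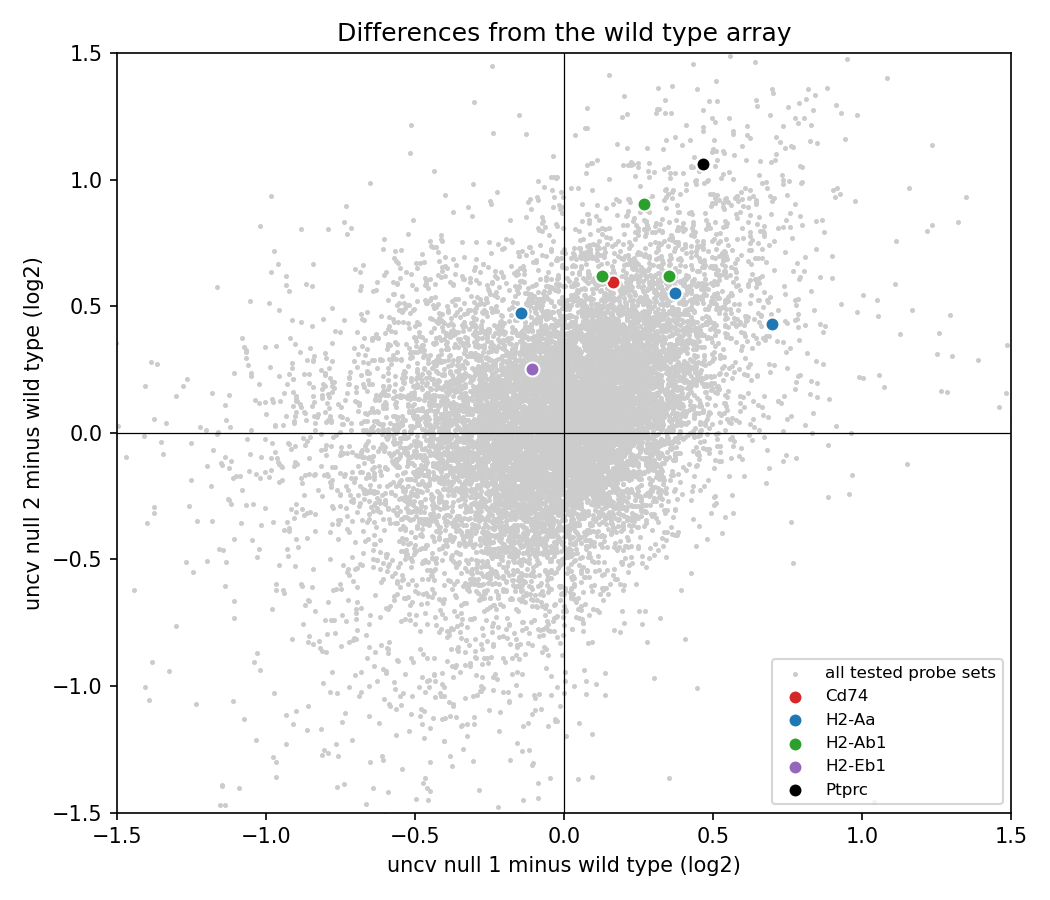
Difference from wild type in uncv null 1 (horizontal, log2) and in uncv null 2 (vertical, log2) for the tested probe sets of Cd74, H2-Aa, H2-Ab1, H2-Eb1 and Ptprc (coloured points) over all 13559 tested probe sets (grey); both axes share the wild type array, and 152 grey points fall outside the axes. All coloured points lie above 0 on the vertical axis, 2 of them left of 0 on the horizontal axis, and Ptprc is the highest at 1.06. Ptprc passed the minimum for testing only through the uncv null arrays.

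H2-DMa and Ciita, which act on loading and on transcription of class II, were below the minimum for testing. For H2-DMa the brighter probe set, 1422527_at, had 3.88 (wild type), 4.19 (uncv null 1) and 4.35 (uncv null 2), slightly above the level of the Y-linked probe sets, and 1459872_x_at lay between 2.89 and 2.99. The 3 probe sets of Ciita lay between 2.63 and 2.95 in all arrays, with no common order of the arrays. At that level the array gives no measurement of Ciita in these samples, and a difference between them could not be seen.

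The leukocyte reference Ptprc, which encodes the phosphatase CD45 of nucleated blood cells, was higher than wild type on both uncv null arrays. Its probe set 1422124_a_at had 4.79 (wild type), 5.25 (uncv null 1) and 5.85 (uncv null 2). The wild type value alone lies below 5, so that the probe set passed the minimum through the uncv null arrays and had to lie above wild type. Its mean difference was 0.76 ± 0.33 (1.70-fold; 95% interval -0.06 to 1.59; limma adjusted p = 0.9996), and uncv null 2 was past 2-fold with 1.06. A further probe set, 1440165_at, was dim at 3.06, 3.01 and 2.78. The median difference of the 4 tested class II genes, each by its brightest probe set, lay below that of Ptprc by 0.25 in uncv null 1 and by 0.49 in uncv null 2, and with H2-Ea added the gaps were -0.30 and -0.51. Since Ptprc was tested only because it was high in the uncv null arrays, these gaps are descriptions and rank nothing.

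Cd207, the Langerhans cell reference, was dim, with 3.35 (wild type), 3.58 (uncv null 1) and 3.37 (uncv null 2). It lay at percentile 42.2 of all non-control probe sets, at or below the level of the Y-linked probe sets, and so gives no measure of Langerhans cells here. The tested class II probe sets lay above that level in all 3 arrays beside this dim Cd207. Of 16 Langerhans and dendritic cell markers, 15 had a probe set and 4 passed the minimum, namely Epcam, Fscn1, Mfge8 and Id2, all of which other skin cells also express. Of these 4, 2 were higher and 2 lower in both arrays, against 38.8% and 26.4% of all tested genes. The medians of the 4 were -0.08 and -0.35. Epcam differed by 0.31 ± 0.32, Mfge8 by 0.17 ± 0.27, Fscn1 by -0.46 ± 0.32 and Id2 by -0.60 ± 0.30. The dendritic cell genes Itgax, Flt3, Zbtb46, Batf3, Xcr1, Ccr7 and Cd209a were dim in all arrays, between 2.56 and 3.97. Clec10a, a lectin of dermal dendritic cells and macrophages, had 4.51, 5.15 and 4.55.

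Markers of other leukocytes were read from lists, each gene by its brightest probe set. Over all 105 listed genes that were tested, 0 passed limma's adjusted threshold. An unadjusted limma p under 0.05 was reached by 7 of the 105 (4 muscle, 2 mast cell and 1 adipocyte marker), against 245 (2.90%) of all 8456 tested genes. Among the 7 is Hdc, which passed the minimum only through the uncv null arrays, where it was high. The lists were also chosen with earlier results of these data known, so this count is a description only. Over all 8456 tested genes, 38.8% were higher and 26.4% lower than wild type in both uncv null arrays, with median differences of 0.03 in uncv null 1 and 0.07 in uncv null 2. Of 16 pan-leukocyte markers 10 were tested, 7 of them higher and 1 lower in both arrays. Their median differences were 0.22 and 0.48, beside 0.22 and 0.57 for the class II probe sets of members. Coro1a, an actin regulator of leukocytes, had 4.70 (wild type), 4.55 (uncv null 1) and 5.95 (uncv null 2). Coro1a passed the minimum through uncv null 2, and Ptprc is also among the 10. Without both, 6 of 8 were higher and 1 lower in both arrays, with medians of 0.22 and 0.44 and a summed level of 792, 883 and 1073. The tetraspanin Cd53 had 5.86, 6.22 and 6.55. The summed linear level of the 10 markers was 845 (wild type), 945 (uncv null 1) and 1192 (uncv null 2). The part of leukocyte content in the class II values was not tested.

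Among macrophage and monocyte markers 13 of 20 were tested, with medians of 0.13 and 0.41. In both arrays 8 were higher and 0 lower, against 38.8% and 26.4% of all tested genes. Lyz2, the lysozyme of myeloid cells, had 6.47 (wild type), 6.72 (uncv null 1) and 7.52 (uncv null 2). Cd163, a haemoglobin scavenger receptor, had 5.40, 5.61 and 6.26. Mrc1, the mannose receptor, had 7.89, 8.40 and 8.38, and the complement gene C1qb had 6.34, 6.57 and 6.99. In Csf1r, the receptor that macrophages and Langerhans cells need, the values were 9.37, 9.47 and 9.12, so that uncv null 2 was the lowest array. The summed level of the 13 markers was 1820 (wild type), 2080 (uncv null 1) and 2090 (uncv null 2).

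B cells also carry class II. Of the 10 B cell markers 9 had a probe set and 0 passed the minimum, and the brightest was Ighm, the heavy chain of IgM, at 4.83 (wild type), 5.004 (uncv null 1) and 4.56 (uncv null 2). The B cell coreceptor component Cd79a lay between 2.89 and 2.99. Of 13 T cell markers, Thy1 and Zap70 were tested. Thy1, which fibroblasts and nerve cells share, had 8.16, 8.66 and 8.68, and Zap70 had 5.08, 5.30 and 5.27. The T cell receptor components Cd3d and Cd3g were dim, between 2.58 and 3.02. Cd3e and Cd4 were dim at a higher level, with 4.26, 4.73 and 4.22 for Cd3e and 4.24, 4.23 and 3.96 for Cd4. None of the 9 neutrophil markers with a probe set passed the minimum. Camp, an antimicrobial peptide of neutrophil granules and epidermis, had 4.26, 4.84 and 5.38, while Ltf, the lactoferrin gene, had 5.93, 4.70 and 3.44. Of 9 mast cell markers 6 were tested, with medians of 0.06 and -0.17. In both arrays 2 were higher and 2 lower, against 38.8% and 26.4% of all tested genes. Hdc, the histamine-forming enzyme, differed by 1.00 ± 0.28 and the tryptase Tpsb2 by -0.78 ± 0.29. Hdc, with 4.83, 5.68 and 5.98, passed the minimum through the uncv null arrays, and without it 1 of 5 was higher in both, with medians of 0.04 and -0.18. The filter also acted the other way. Tpsab1, with 5.35, 4.44 and 3.96, missed the minimum through the uncv null arrays and is in none of these medians. Kit, the stem cell factor receptor, differed by 0.50 ± 0.38 and the chymase Mcpt4 by -0.45 ± 0.32.

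**Figure D4:**
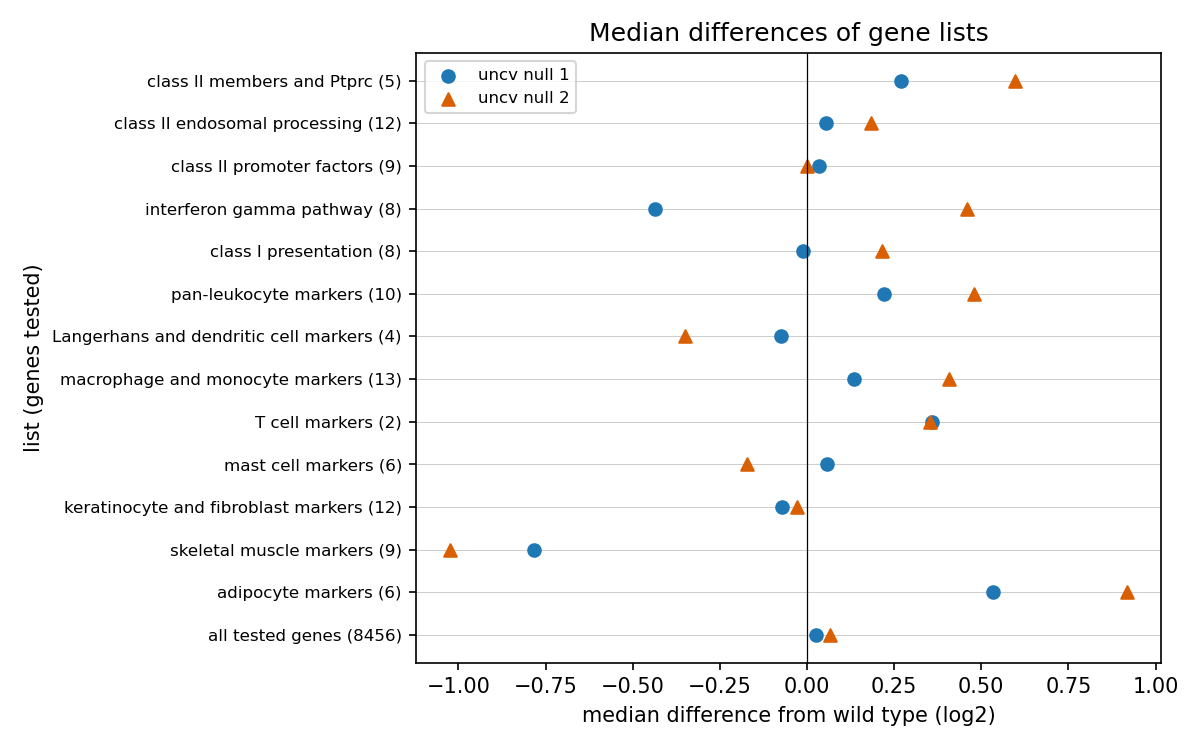
Median difference from wild type (log2, horizontal axis) of the tested genes of each list (vertical axis, number of genes in brackets) in uncv null 1 (circles) and uncv null 2 (triangles), for lists with at least 2 tested genes. The class II members with Ptprc stand at 0.27 and 0.60, the pan-leukocyte markers at 0.22 and 0.48, and all tested genes at 0.03 and 0.07. Ptprc, counted in both of the former lists, and the pan-leukocyte marker Coro1a passed the minimum only through uncv null arrays. Without them the medians are 0.22 and 0.57 for the class II members and 0.22 and 0.44 for the pan-leukocyte markers.

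Muscle and adipocyte markers each lay on one side of wild type, while keratinocyte and fibroblast markers did not, and 0 of all these passed. All 9 skeletal muscle markers were lower in both uncv null arrays, against 26.4% of all tested genes, with medians of -0.78 and -1.02. Their summed level was 15524 (wild type), 10948 (uncv null 1) and 9423 (uncv null 2). Myh3, an embryonic myosin, differed by -2.03 ± 0.88, the myogenic factor Myog by -1.36 ± 0.43, and the fast troponins Tnnt3 and Tnni2 by -1.02 ± 0.26 and -0.90 ± 0.27. All 6 adipocyte markers measured were higher in both, against 38.8% of all tested genes, with medians of 0.53 and 0.92. Their summed level was 4231, 5504 and 6228. The adipokines Retn and Adipoq differed by 1.64 ± 0.69 and 0.67 ± 0.28, the lipid droplet gene Cidec by 1.05 ± 0.48 and the adipocyte regulator Pparg by 0.78 ± 0.31. The 12 keratinocyte and fibroblast markers had medians of -0.07 and -0.03, 2 of them higher and 6 lower in both arrays. Their leading members were Col1a1 at -0.40 ± 0.32, Lum at -0.36 ± 0.27, Dcn at -0.35 ± 0.31 and Krt14 at 0.31 ± 0.30. The part of tissue composition in the class II values was not tested.

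The other class II genes of the H2 region were mostly dim. Of 7 listed, 5 had a single-gene probe set and only H2-Ea passed the minimum. H2-Oa and H2-Ob, chains of the inhibitor H2-O, lay between 2.66 and 3.38, and the brightest H2-DMb2 probe set lay between 3.95 and 4.16. H2-Eb2, a beta chain of little known function, had 3.80, 3.52 and 3.22. The windows of H2-Oa, H2-Ob and H2-Eb2 held the same motif pair as those of H2-Aa and H2-Eb1, whose brightest probe sets passed the minimum. The pair was thus present on both sides of the minimum.

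The endosomal genes that prepare antigen and cut the invariant chain were bright. Of 16 listed, 12 were tested and 0 passed, with medians of 0.06 and 0.18. In both arrays 6 were higher and 2 lower, against 38.8% and 26.4% of all tested genes. Ctss, the cathepsin that cleaves the invariant chain in antigen-presenting cells, had 7.11 (wild type), 7.15 (uncv null 1) and 7.51 (uncv null 2). Ctsh had 7.77, 8.07 and 8.56, a mean difference of 0.55, and Ctsb had 10.6, 10.7 and 10.9. Ctsz was lower in both, with 8.61, 7.99 and 8.30 and a mean difference of -0.47. Ifi30, the thiol reductase GILT, had 8.93, 8.91 and 8.92, the narrowest spread among these.

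The factors that bind class II promoters showed no common side. Of 13 listed, 9 were tested, with medians of 0.04 and 0.0011. In both arrays 4 were higher and 2 lower, against 38.8% and 26.4% of all tested genes. Rfx5, the DNA-binding subunit of RFX, had 5.98 (wild type), 5.65 (uncv null 1) and 5.70 (uncv null 2), the only list member among the 4 farthest from wild type that was lower in both. Its partner Rfxap had 5.55, 5.59 and 5.75. The acetyltransferase Ep300 had 6.42, 6.64 and 6.76, and Crebbp had 8.25, 8.70 and 8.23. The NF-Y subunits Nfya, Nfyb and Nfyc lay near wild type, Nfyb in uncv null 1 being the farthest at -0.17. Spi1 and Irf8, factors of myeloid cells, were dim, between 3.40 and 4.29.

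In the interferon gamma pathway, which induces Ciita, several GTPase genes lay on opposite sides of wild type in the uncv null arrays. Of 20 genes listed 8 were tested and 0 passed. In both arrays 2 were higher and 1 lower, against 38.8% and 26.4% of all tested genes. The medians of the 8 were -0.44 in uncv null 1 and 0.46 in uncv null 2. Here uncv null 1 is the array with the high 18S rRNA signal of 7.93 and the actin 3' minus 5' difference of 1.23, and the part of RNA quality in this order was not tested. Iigp1, an interferon-inducible GTPase, had 6.16 (wild type), 3.96 (uncv null 1) and 7.10 (uncv null 2). Igtp, of the same kind, had 5.36, 4.78 and 5.82, and the guanylate-binding protein gene Gbp7 had 5.55, 4.94 and 6.27. All 3 were lower than wild type in uncv null 1 and higher in uncv null 2, as were 20.1% of all tested genes. The 5 dim GTPase genes Gbp2, Gbp3, Gbp6, Irgm1 and Irgm2 had the same order, 8 of 8 in all, and this group was picked from the list after its values were seen. The same order was found in the H2-Aa probe set 1452431_s_at, in H2-Eb1 and in the tested H2-Ea probe sets, and in 23.0% of all tested probe sets. Cd74 and H2-Ab1 did not have it. Among upstream genes the kinases Jak1 and Jak2 were higher in both arrays, by means of 0.56 ± 0.28 and 0.56 ± 0.27, the receptor subunit Ifngr2 had 5.99, 5.20 and 6.04, and the factor Irf1 was lower in both with 6.03, 5.75 and 5.998. Ifng itself was dim, between 2.48 and 2.79.

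**Figure D5:**
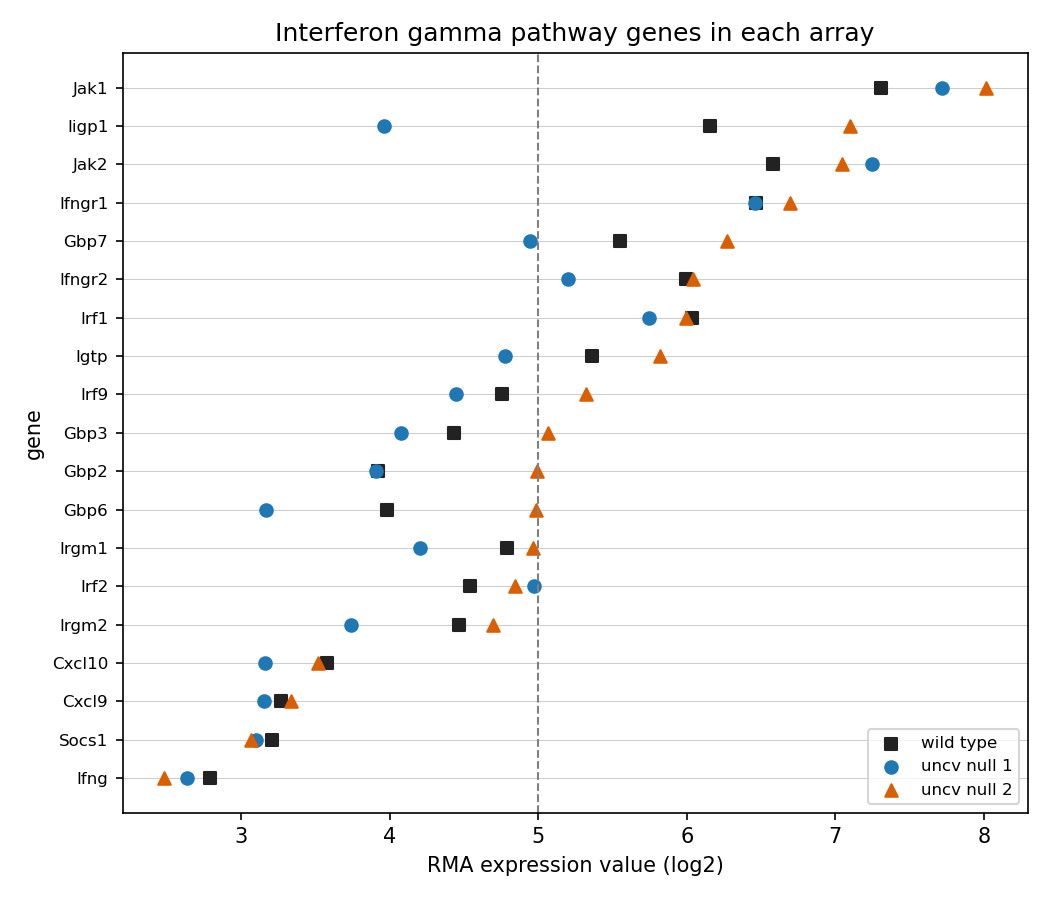
RMA expression values (log2, horizontal axis) of the 19 interferon gamma pathway genes with a probe set (vertical axis) in wild type (squares), uncv null 1 (circles) and uncv null 2 (triangles), 1 point per array; the dashed line marks the minimum mean of 5. Iigp1 spans the widest range, from 3.96 in uncv null 1 to 7.10 in uncv null 2, with wild type at 6.16.

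The tested genes of class I presentation, which serves cytotoxic T cells, had no common side. Of 14 genes 8 were tested and 0 passed, with 3 higher and 2 lower in both arrays, against 38.8% and 26.4% of all tested genes. The medians of the 8 were -0.01 and 0.21. With no filter the median of the 14 mean differences was 0.22, beside 0.06 for the 8. The dim genes Tap1, Tap2, Psmb8, Psmb9, Nlrc5 and Erap1 all lay above wild type in uncv null 2. Of these, Psmb9 and Erap1 lay below wild type in uncv null 1. The share of 57.9% above wild type in uncv null 2 covers tested probe sets only. No such share was computed over dim genes, so the side of these genes has no reference. The heavy chain H2-K1 had 6.73 (wild type), 6.82 (uncv null 1) and 7.24 (uncv null 2), and B2m, the light chain, had 9.26, 9.21 and 9.19. The heavy chain H2-D1 had 7.56, 7.23 and 7.98, and the immunoproteasome subunit Psmb10 had 5.68, 5.36 and 6.16, both with uncv null 1 lowest and uncv null 2 highest. Tapbp, which holds class I near the peptide transporter, differed by 0.31 ± 0.28, the chaperone Canx by 0.12 ± 0.27 and the disulfide isomerase Pdia3 by -0.38 ± 0.29. Of the costimulation and chemokine genes 10 of 12 had a probe set and only Icosl, with 5.01, 5.09 and 5.21, was tested. Cd80, Cd86 and Cd40, which a mature antigen-presenting cell displays beside class II, were dim, between 2.98 and 3.63.

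The tested genes whose differences from wild type in both uncv null arrays lay nearest to those of Cd74 were Slc27a1, Pex3, Ypel5, Ampd3 and Mvk. Their Euclidean distances over both differences were 0.0044 to 0.015. In all, 109 genes lay within 0.1 of Cd74, so 3 arrays do not set these genes apart from many others. No class II gene was among the 5.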

How the data were processed

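Total RNA of dorsal skin was hybridised to 1-colour arrays, 1 per sample. The deposited values are RMA values on the log2 scale; RMA is named in the submitters' processing notes, without software or version. RMA gives the arrays a common distribution, which would hide a global shift. Scanner files and detection calls were not used here, and the number of arrays limits the precision.

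Of 45101 probe sets, 64 controls were left out of the tests; 34945 of the rest had 1 gene symbol in the platform annotation, 932 several and 9160 none. The 13559 probe sets with a mean of at least 5 were fitted with limma 3.58.1 in R 4.3.3 (lmFit, eBayes, Benjamini-Hochberg, threshold 0.05), as uncv null minus wild type, with 1 residual and 4.75 prior degrees of freedom. The fit takes the spread of the lone wild type array to be that of the uncv null arrays. Lists took each gene's brightest probe set and were given counts and medians, with no list test; summed levels are sums of 2 to the power of the log2 values of tested genes.

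Named genes are the members, the 4 tested genes of each list with the largest mean difference and the 5 nearest to Cd74. Others were picked with their values known. The members and lists were chosen with earlier results of these data known. The fit was tested on simulated data. Alternatives were other filters, scalings, variance models and probe set rules, and leaving out each uncv null array.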

Additional observations from a re-analysis of the deposited data

How the results depend on the processing

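No member probe set and no listed gene passed limma's adjusted threshold in any alternative with a test: no filter, a minimum mean of 7, arrays centred on their medians, quantile normalization again, an intensity trend, robust variances, or averaging the probe sets of each gene. The count of member probe sets past 2-fold in both arrays was 0 in the main setting and ran from 0 to 1 when 1 uncv null array was left out; the 1 is Ptprc, at 1.06 without uncv null replicate 1. Those settings leave 1 array against 1 and have no test. Other filters and variance models leave the mean difference of a probe set as it is, so many recomputed member values could not turn their sign. The count of turned signs is therefore no measure of stability. Of 64 recomputed member values 2 turned their sign, both without uncv null replicate 2. H2-Aa by probe set 1452431_s_at ran from -0.15 to 0.47 and H2-Eb1 from -0.11 to 0.25 over both such settings, each value being that of a lone uncv null array. The median of the class II genes minus Ptprc was -0.34, and -0.39 with H2-Ea, a setting added after the data were seen; it ran from -0.49 to -0.25 when 1 uncv null array was left out. Those are the values of the single arrays, so they show nothing about stability. Centring the arrays on their medians acts alike on both terms and gave -0.34. Quantile normalization again and no filter each gave -0.38. At a minimum mean of 7 Ptprc is left out and that value could not be computed. Of 102 recomputed list medians 18 were labelled moved. The cut for that label differed between lists, so it does not rank the shifts by size. With arrays centred on their medians the T cell list went from 0.36 to 0.33 and was labelled moved. The interferon gamma list, at -0.0029, ran from -0.44 to 0.46 when 1 uncv null array was left out and was not. With no filter the Langerhans and dendritic cell list stood at 0.13 rather than -0.15. With the mean of probe sets the keratinocyte and fibroblast list stood at 0.0084 rather than -0.06. No paired analysis was possible because the labels give the wild type sample no replicate number and there is only 1. With the longer Y box CTGATTGG, an alternative recorded after the data were seen, the X and Y box pair was found in 4 rather than 6 class II genes, and in 0.341% rather than 0.715% of windows. These results are limited by the single wild type array and, for Ciita, Cd207 and H2-DMa, by the dim signal.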
